A study of Mus musculus with 8 samples.

Results

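The nontransgenic adult mouse heart was described from 4 RNA-sequencing libraries, labelled nontransgenic hearts A, B, D and E, out of 8 libraries in the series. They were chosen by their genotype label, and all 13227 genes of the count tables were used. The mice were FVB/N males (an inbred strain often used for transgenesis) aged 3 months, labelled nontransgenic. The other 4 libraries came from transgenic FVB/N males of the same age and tissue that overexpress FASTKD1 in the heart. FASTKD1 is a mitochondrial RNA-binding protein. These 4 are used here only to check labels and to set the spread between hearts beside theirs. RNA was taken from hearts with Trizol, so each value mixes the cell types of the organ, and fewer cells of a type cannot be told apart from less RNA per cell. The labels do not say which chambers were collected.

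Depth was similar, at 45802079 to 50830215 counts per nontransgenic library. Abundance is given as CPM (counts per 1000000 counts of a library), as the mean ± SD over hearts (n = 4). Spread is given as the coefficient of variation (CV, the SD as a percent of the mean). CPM grows with transcript length, so a rank by CPM is a rank of shares of counts. Levels of different genes are compared as counts per kilobase of exon, scaled to the same sum in each heart as CPM and called the per-kilobase level below. In the deposited table at least 2 of the 8 libraries reached about 1 CPM for each gene. Therefore a gene silent in nontransgenic hearts can be listed because of the transgenic ones, and a gene outside the table is described as not analysed here.

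One library went against its labels. The library labelled nontransgenic heart D had 0 counts for Ddx3y, Eif2s3y, Kdm5d and Uty, which lie on the Y chromosome, although it is labelled male. A count of 0 there allows up to 0.0603 CPM, counting error only. The other 3 nontransgenic hearts held 99.1, 113 and 132 CPM of Ddx3y, and the transgenic hearts 120.4 to 144 CPM. The X inactivation genes Xist and Tsix were not analysed here. Fastkd1 itself was at 24.1 CPM in heart A, 25.8 in heart B, 213 in the library labelled D and 34.9 in heart E. The library labelled D was thus the highest of the 4, at 2.09% of the transgenic mean of 10209 CPM. It is called the library labelled D below, and values without it are given where they differ. Heart B also stood apart, at the other end of the first principal component of TMM-scaled log2 CPM (TMM is edgeR's scaling for differences in composition), which held 57.1% of the variance. The scores on it were -36.3 for B, -6.72 for A, 8.43 for E and 34.6 for the library labelled D. No 2 libraries agreed within sampling noise.

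The adult heart beats without pause and makes most of its ATP by oxidising fatty acids and, to a lesser part, glucose, lactate and ketone bodies in densely packed mitochondria. ATP is spent on sliding actin and myosin filaments in the sarcomere and on pumping calcium back into the sarcoplasmic reticulum after each beat. Mitochondrial DNA codes for a few subunits of the respiratory chain, and the nucleus codes for the rest. Cardiomyocytes make up most of the organ's volume but share it with endothelial cells, fibroblasts, mural cells and macrophages.

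Few genes held much of the counts. Ranked by mean CPM, 129 genes held 50% of all counts, and 110 without the library labelled D. In single hearts that number was 103 in A, 71 in B, 201 in the library labelled D and 164 in E. The 10 most abundant genes held 28.7% ± 4.35 of counts (30.3% in A, 33.9% in B, 24.1% in D and 26.3% in E) and the 100 most abundant 47.7% ± 4.31. Without the library labelled D these shares were 30.2% and 49.2%. The upper ranks were shared: 26 genes were in the top 30 of each of the 4 hearts, out of 34 that reached it in any, and 82 were in each top 100, out of 118. The 11 genes above 10000 CPM alone held 29.8% of counts, whereas the 6715 genes between 10 and 100 CPM held 22.8% and the 4780 genes between 1 and 10 CPM held 2.11%. The median gene was at 15.3 CPM. Protein-coding genes numbered 12353 and held 98.5% of counts, and 521 long non-coding RNAs held 0.445%.

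Transcripts of mitochondrial DNA led the ranking by CPM. mt-Co1, the catalytic subunit of cytochrome c oxidase, ranked first, with 79874 CPM in A, 97297 in B, 61231 in the library labelled D and 69413 in E (76954 ± 15561). mt-Cytb, the cytochrome b of complex III, followed at 48365 ± 9462 CPM, and the complex I subunit mt-Nd1 at 31585 ± 7514. The 9 mitochondrially encoded genes in the list held 25.3% of counts in A, 30.02% in B, 18.5% in D and 21.2% in E, and 25.5% ± 4.41 without the library labelled D. For mt-Co1, mt-Cytb and mt-Nd1 alike, B was highest, then A, E and the library labelled D. mt-Nd2, mt-Nd5 and mt-Nd4 also ranked in the top 7 by CPM. mt-Nd6, at 5721 ± 1289 CPM, is the one protein gene read from the other strand, and without a stated strand its reads cannot be told apart from transcripts of the opposite strand. Per kilobase, the mitochondrial ribosomal RNAs mt-Rnr2 at 9237 and mt-Rnr1 at 6073 were below mt-Co1 at 116162, and how ribosomal RNA was removed is not stated in the labels. mt-Co2, mt-Co3, mt-Atp6, mt-Atp8, mt-Nd3 and mt-Nd4l were not analysed here, so the share of mitochondrial transcripts given is that of the listed genes.

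Sarcomere genes held the next largest share of counts, and it differed less between hearts than the mitochondrial share, although 9 of the 44 genes ranged over 2-fold and 0 of the 9 mitochondrially encoded ones did. The 44 genes held 11.2% ± 0.589 of counts, and 10.9% ± 0.414 without the library labelled D. Myh6, the fast alpha myosin heavy chain of the adult mouse heart, had the highest CPM of the nuclear genes, at 26866 CPM in A, 21383 in B, 29041 in the library labelled D and 26621 in E. It was lowest in B and alone held 49.5% of the counts of its chromosome, 14. Actc1, cardiac alpha-actin, was at 11873, 11602, 12471 and 11522 CPM in A, B, D and E, a CV of 3.62% that became 8.67% with TMM scaling. Myl2, the ventricular regulatory light chain, was at 12473 ± 1189 CPM, Tpm1 (alpha-tropomyosin) at 9897 ± 430.0, Tnnt2 (troponin T) at 6998 ± 651 and Tnni3 (troponin I) at 4601 ± 240.0. Ttn, which codes for the giant spring protein titin, ranked 19th by CPM at 4781 ± 985 and 758th by its per-kilobase level, and its exons span 116825 bases.

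Several sarcomere genes carry binding motifs of muscle transcription factors close to their start. Promoter windows (250 bases before to 50 after the start) were taken from RefSeq on GRCm38.p6, the first window per gene, and 36 of the 44 sarcomere genes had one. The CArG box, bound by serum response factor, was in 6 of these 36 (16.7%), against 1.57% of the windows of 27025 genes, and the MEF2 motif in 5 (13.9%) against 0.566%. Both motifs were searched on both strands. A match is a description of the letters and shows no binding. The windows with a CArG box are shown first, 5′ to 3′ on the gene's strand with the motif in capitals, because they belong to genes of widely different levels, from Actc1 to the atrial light chain Myl7.
Actc1 (chr2:114052888-114052947, minus strand): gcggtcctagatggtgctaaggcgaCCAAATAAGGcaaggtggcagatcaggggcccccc
Myl3 (chr9:110763568-110763627, plus strand): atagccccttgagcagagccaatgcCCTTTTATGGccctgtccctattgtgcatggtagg
Myom1 (chr17:71019433-71019492, plus strand): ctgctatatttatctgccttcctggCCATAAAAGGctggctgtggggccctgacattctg
Ldb3 (chr14:34588682-34588741, minus strand): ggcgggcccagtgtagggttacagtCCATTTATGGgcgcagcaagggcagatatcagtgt
Acta1 (chr8:123894814-123894873, minus strand): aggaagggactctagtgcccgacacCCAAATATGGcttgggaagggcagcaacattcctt
Myl7 (chr11:5898809-5898868, minus strand): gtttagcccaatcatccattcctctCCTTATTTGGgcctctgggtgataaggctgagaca

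The windows with a MEF2 motif, shown for the same reason and with the motif in capitals, include those of the thick filament gene Mybpc3, the Z-disc gene Myoz2 and Ttn.
Mybpc3 (chr2:91118029-91118088, plus strand): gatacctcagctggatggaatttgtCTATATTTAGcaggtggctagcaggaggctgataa
Ttn (chr2:76982679-76982738, minus strand): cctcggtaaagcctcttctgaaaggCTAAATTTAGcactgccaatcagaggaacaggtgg
Myoz2 (chr3:123034988-123035045, minus strand): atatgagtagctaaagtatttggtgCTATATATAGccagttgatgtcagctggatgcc
Xirp2 (chr2:67445903-67445962, plus strand): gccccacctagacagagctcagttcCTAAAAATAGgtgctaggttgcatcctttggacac
Synpo2l (chr14:20668429-20668488, minus strand): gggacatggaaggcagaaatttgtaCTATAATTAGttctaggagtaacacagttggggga
Genes with either motif covered a wide range of levels. Genes with the CArG box ran from 163 (Myl7) to 17338 (Actc1) per kilobase, and those with the MEF2 motif from 71.6 (Synpo2l) to 2457 (Mybpc3).

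**Figure D1:**
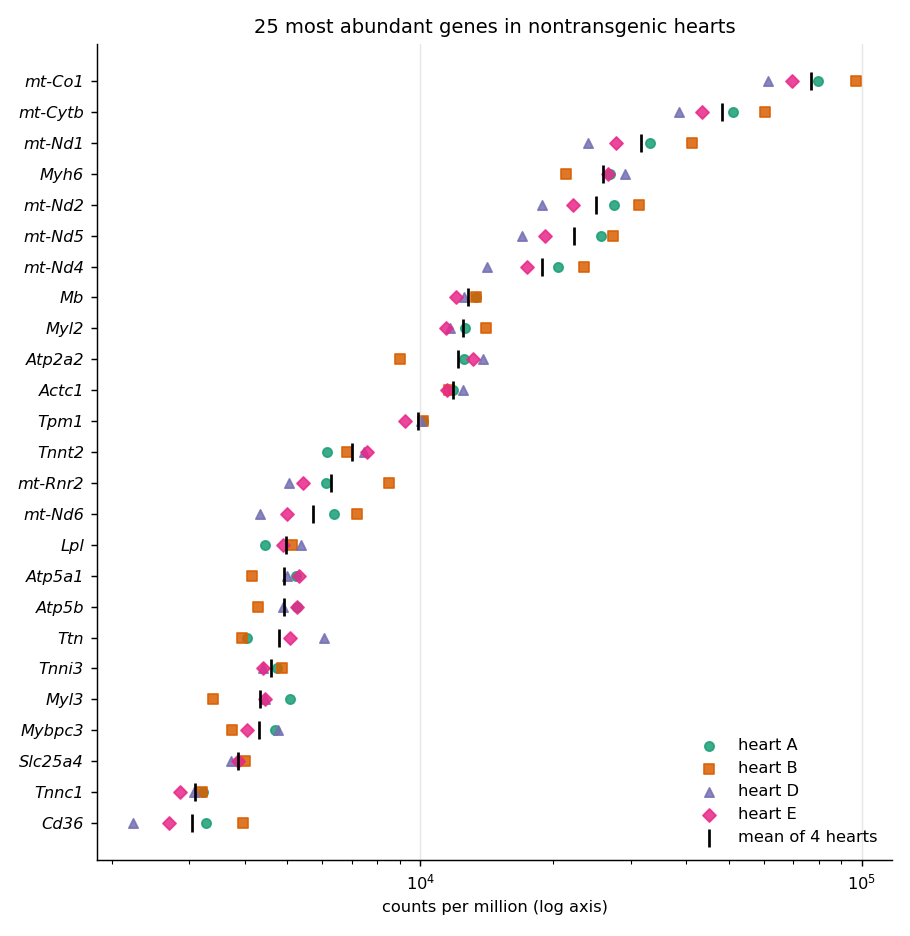
The 25 most abundant genes in nontransgenic hearts, from top to bottom by mean CPM (horizontal log axis). Symbols are single hearts and the black bar is their mean. Mitochondrially encoded genes are highest in heart B and lowest in the library labelled D, whereas the symbols of Actc1, Tpm1 and Slc25a4 lie close together on this scale. Their CVs were 3.62%, 4.35% and 2.97% by library totals, and 8.67%, 13.0% and 13.2% with TMM scaling.

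Per kilobase of exon, the oxygen-storing protein myoglobin (Mb) led the nuclear genes, at 20298 ± 1035. It was followed by Actc1 at 17338 ± 1872, Myl2 at 15018 ± 456 and Myh6 at 9179.7 ± 1794. On this scale 12 genes held 50% of the total. Exons of Apol6 and Gm49540 on the opposite strand cover 31.9% of those of Mb, and the counting is not stated to use strand. By CPM, Mb was at 13409 in A, 13368 in B, 12579 in D and 12083 in E, a CV of 5.003% that became 14.7% with TMM scaling.

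Calcium handling, the cycle that links excitation to contraction, was led by Atp2a2, the SERCA2 pump of the sarcoplasmic reticulum. It was at 12587 CPM in A, 8982 in B, 13872 in the library labelled D and 13202 in E, so B was lowest. Its brake phospholamban (Pln) went the other way in B, at 2052, 2622, 2201 and 2129.5 CPM in the same order, although exons of Cep85l and Gm47644 on the opposite strand cover 64.7% of those of Pln. The release channel Ryr2 was at 1416 ± 209.8, the luminal calcium binder Casq2 at 1139 ± 41.5 and Hrc, its histidine-rich partner, at 1718 ± 91.3 CPM. The 29 listed genes held 2.45% ± 0.254 of counts.

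Genes of energy supply made up the next large part. The nuclear subunits of complexes II to V (46 listed) held 3.46% ± 0.146 of counts and those of complex I (36 listed) 1.19% ± 0.0672. The ATP synthase subunits Atp5a1 and Atp5b, at 4926 ± 526 and 4922 ± 457 CPM, had the highest CPM among them. Fatty acid uptake and oxidation (46 listed) held 2.69% ± 0.231. Lpl, the lipase that frees fatty acids from lipoproteins, was at 4958 ± 386 CPM and Hadha, a subunit of the trifunctional protein of beta-oxidation, at 1860.0 ± 179. The fatty acid carrier Cd36 was at 3264 CPM in A, 3960.0 in B, 2233 in D and 2703 in E. The tricarboxylic acid cycle (23 listed) held 2.27% ± 0.0764, with Mdh1, which also acts in the malate-aspartate shuttle, at 2731 ± 213 CPM. Ogdh, a subunit of the 2-oxoglutarate dehydrogenase complex, was at 2403, 1293, 2471 and 2573 CPM in A, B, D and E, so that B was low.

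Glucose uptake and glycolysis (26 listed) held 1.146% ± 0.0491 of counts, led by the aldolase Aldoa at 2232 ± 158 CPM. Phosphocreatine and adenylate transfer (19 listed), which shuttles high-energy phosphate from mitochondria to myofibrils, held 1.19% ± 0.0243. Within it the mitochondrial ADP/ATP carrier Slc25a4 was at 3894, 4000.2, 3721 and 3873 CPM, a CV of 2.97% that became 13.2% with TMM scaling. Enzymes that burn ketone bodies and branched-chain amino acids (22 listed) held 0.543% ± 0.00807, with the ketone-activating Oxct1 at 1623 ± 67.8 CPM. The mitochondrial ribosome, with 78 listed proteins, held 0.359% ± 0.00361, and the cytosolic ribosome, with 82, held 1.09% ± 0.0513. In all, the 566 genes of the functional make-up lists held 54.4% ± 4.41 of counts, and 40.3% of the counts of nuclear genes.

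Regulators and membrane proteins took a small part of the counts. Cardiac transcription factors (42 listed) held 0.549% ± 0.0385, and Ankrd1, a stretch-responsive cofactor, had the highest CPM among them at 2744, 3172, 2227 and 1419 CPM in A, B, D and E, with E lowest. Hopx, a homeodomain cofactor, was at 257 ± 13.7 CPM, and antisense Hopxos covers 27.2% of its exon bases. Gata4 held 81.0% ± 1.29 of the GATA factors and was at 122, 84.5, 126 and 125 CPM, with B low. Ion channels and gap junctions (34 listed) held 0.532% ± 0.0651. The ventricular connexin Gja1 was at 809.8 ± 54.3 CPM and held 93.9% ± 2.11 of the connexin set.

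Receptors for hormones and transmitters (39 listed of 50) held 0.197% ± 0.0243. The muscarinic receptor Chrm2, which slows the heart, was at 197 ± 13.6 CPM, and Ghr, the growth hormone receptor, at 219 ± 11.4. Adrb1, the main beta-adrenergic receptor of the heart, was at 9.66, 5.65, 15.6 and 12.7 CPM and held 68.7% ± 6.18 of its set per kilobase. Secreted factors (35 listed of 40) held 0.148% ± 0.0400, with the chemokine Cxcl12 at 254, 174, 349.9 and 331 CPM. For Adrb1 and Cxcl12 alike, B was lowest. Protein folding genes (30 listed) held 1.04% ± 0.0812, led by the small heat shock protein Hspb7 at 2545, 1906, 2612 and 2511 CPM. The chaperone Hsp90ab1 had a CV of 11.5%, which became 1.59% with TMM scaling. Antioxidant genes (26 listed) held 0.390% ± 0.0161, with mitochondrial superoxide dismutase Sod2 at 576, 611, 582 and 629 CPM.

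**Figure D2:**
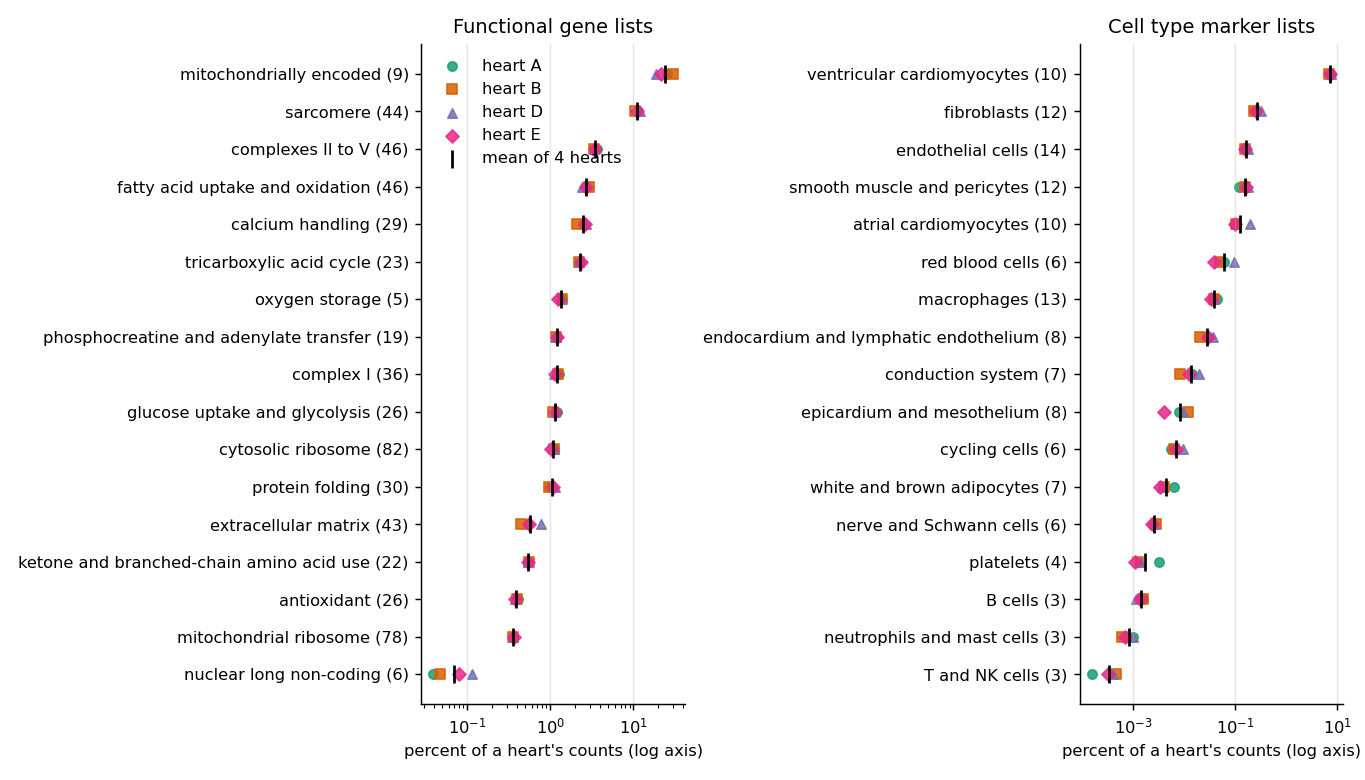
Percent of each heart's counts (log axis) held by functional gene lists (left) and cell type marker lists (right), with the number of listed genes in brackets. Symbols are single hearts and black bars are means. Atrial markers are highest in the library labelled D (0.195% against 0.0969% to 0.101%). Shares of library totals are shown, and the mitochondrially encoded list, at 18.5% to 30.02%, enters each of those totals.

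Among sets of related genes, a single partner often dominated. Some sets join genes of different cell types, such as Mb with the globins of red blood cells. In 35 sets with at least 2 listed partners, the leading gene held at least 90% of the set's per-kilobase level in 20, and the same gene led in each heart in 33. The adult cardiac forms led the contractile sets: Myh6 held 96.7% ± 0.435 of the myosin heavy chains against 2.99% ± 0.353 for Myh7, the slow beta form, and Actc1 held 94.1% ± 0.683 of the actins against 3.43% ± 0.928 for skeletal Acta1. Tnnt2 held 99.4% ± 0.105, Mybpc3 98.8% ± 0.132 and Atp2a2 99.9% ± 0.0158 of the listed members of their sets. Tnnt3, Mybpc1 and Atp2a1 of these sets were not analysed here. Cytochrome oxidase subunits with a heart and muscle form also leaned to it, with 96.4% ± 0.711 for Cox6a2, 88.6% ± 1.75 for Cox8b and 74.7% ± 0.816 for Cox7a1. These shares moved little from heart to heart.

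Metabolic partners ranged from a single leader to an even split. Fabp3, the heart-type fatty acid binding protein, held 93.1% ± 0.560 of its set, Slc2a4, the insulin-regulated glucose transporter, 94.3% ± 0.597, and Ldhb, the heart-type lactate dehydrogenase, 78.7% ± 1.73. Mitochondrial creatine kinase Ckmt2 held 70.2% ± 1.23 and cytosolic Ckm 29.3% ± 1.21. Among pyruvate dehydrogenase kinases, which restrain glucose oxidation, Pdk4 held 52.0% in A, 67.4% in B, 35.3% in the library labelled D and 51.0% in E. In the library labelled D, Pdk2 led instead with 44.2%. Without that library Pdk4 held 56.8% ± 9.20. The carnitine palmitoyltransferase set had Cpt1a at 56.9% ± 6.18 and Cpt1b, the muscle form, at 40.1% ± 5.39, but 81.4% of the exon bases of Cpt1b are shared with Gm44502 on the same strand, so its count is uncertain. Among MEF2 transcription factors Mef2d held 50.3% ± 8.11 and Mef2a 36.4% ± 5.53. With the longest transcript as the length, Mef2a held 51.7% and Mef2d 30.8%, so their order depends on the length used.

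**Figure D3:**
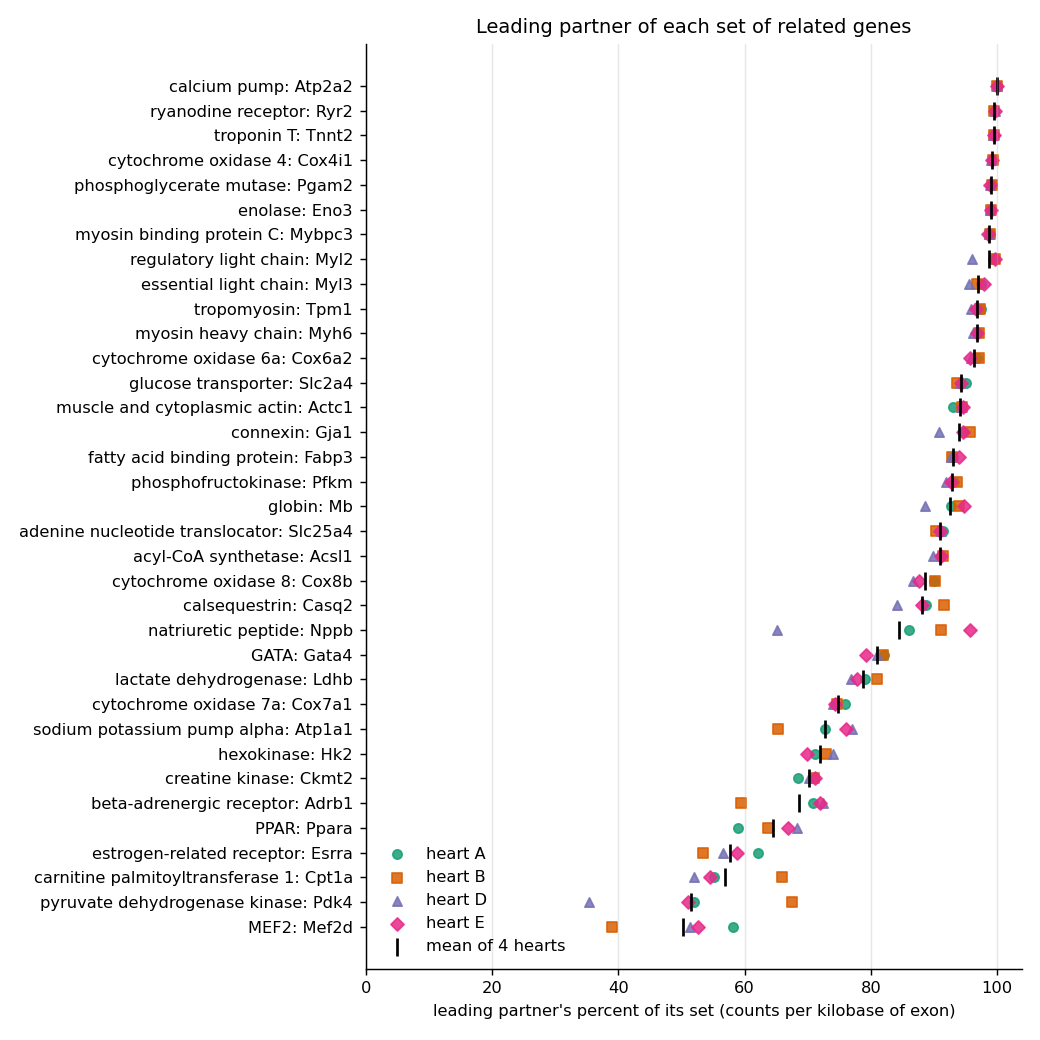
Leading partner of each of 35 sets of related genes, as the percent of the set's counts per kilobase of exon. Symbols are single hearts and black bars are means. In 20 sets the leader's mean is at least 90%, and the pyruvate dehydrogenase kinase and natriuretic peptide sets spread most.

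Markers of the labelled tissue were present. The 10 markers of ventricular cardiomyocytes held 7.202% ± 0.376 of counts, more than any other cell type list. The 12 fibroblast markers held 0.262% ± 0.0359, led by gelsolin (Gsn) at 928 ± 201 CPM and the matrix proteoglycan Dcn at 837 ± 133. The 14 endothelial markers held 0.162% ± 0.0127, with the VEGF receptor Kdr at 221 ± 32.9 CPM. The 13 macrophage markers held 0.0384% ± 0.0044, with the lysozyme gene Lyz2 at 142 ± 28.0 CPM. Of 8 lung epithelial markers none was analysed, of 8 liver markers only Trf was listed, at 1.46 CPM, with 63.5% of its exon bases shared with Gm20425, and of 13 skeletal muscle markers only Ckm, which the heart also uses. Blood leukocyte markers were few: 3 of 13 for T and NK cells were listed and summed to 1.54 to 4.54 CPM, 3 of 9 for B cells to 11.3 to 15.7 CPM, and 3 of 10 for neutrophils and mast cells to 5.96 to 10.1 CPM. Smooth muscle and pericyte markers (12 listed) held 0.152% ± 0.0234. Among them the pericyte gene Rgs5 was at 401 CPM in A and 667, 619.8 and 584 in B, D and E, so A was lowest.

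Atrial markers as a list were higher in the library labelled D than in the other 3. Of 12 markers 10 were listed, and they held 0.0969% of counts in A, 0.101% in B, 0.195% in the library labelled D and 0.0988% in E. By library totals, 8 of the 10 were highest in the library labelled D and 2 in heart E. Over all 12754 genes those counts were 7253 and 2314. Nppa, the atrial natriuretic peptide, was at 48.4, 35.7, 267 and 13.4 CPM in A, B, D and E. The atrial light chain Myl4 was at 15.6, 0.895, 194 and 1.95 CPM and its partner Myl7 at 11.2, 3.36, 136 and 1.28. Sarcolipin (Sln), a regulator of the calcium pump in atria, was at 3.51, 0.0218, 38.2 and 0.157, and the value in B is below the 0.0655 CPM that a count of 0 allows there. For each of these 4 genes the library labelled D was highest and heart A came next. Without that library the list's share was 0.0988% ± 0.00189. Most of this share came from Pam, the most abundant member, at 722 CPM in A, 812 in B and 766 in E. The 4 genes above differed more between A, B and E than the list's share did. Exons of Gm13054 on the opposite strand cover 61.5% of those of Nppa. How much atrial tissue each sample held is not stated, and its part in these values was not tested. The ventricular natriuretic peptide Nppb, was at 270.1, 328, 451 and 264 CPM, and its mean without the library labelled D was 287.

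Over the 12754 genes with a mean of at least 1 CPM, the median CV between the 4 hearts was 17.6%, and counting error alone gives a median of 3.52%. The median was 16.1% without the library labelled D and 12.5% without heart B. In 2892 genes (22.7%) the CV was under 10%, and in 10% of genes it was above 35.8%. The spread fell with abundance, from a median of 22.0% between 1 and 10 CPM to 10.02% between 1000 and 10000 CPM. Above 10000 CPM it was 19.6%, where 6 of the 11 genes are mitochondrially encoded. The common biological CV that edgeR estimated was 20.97%. For pairs of hearts it ran from 15.0% for the library labelled D with E to 27.4% for that library with B. Over the 12636 genes at 1 CPM or more in both genotypes, the median CV was 17.6% in the nontransgenic and 9.15% in the transgenic hearts, and this difference was not tested.

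**Figure D4:**
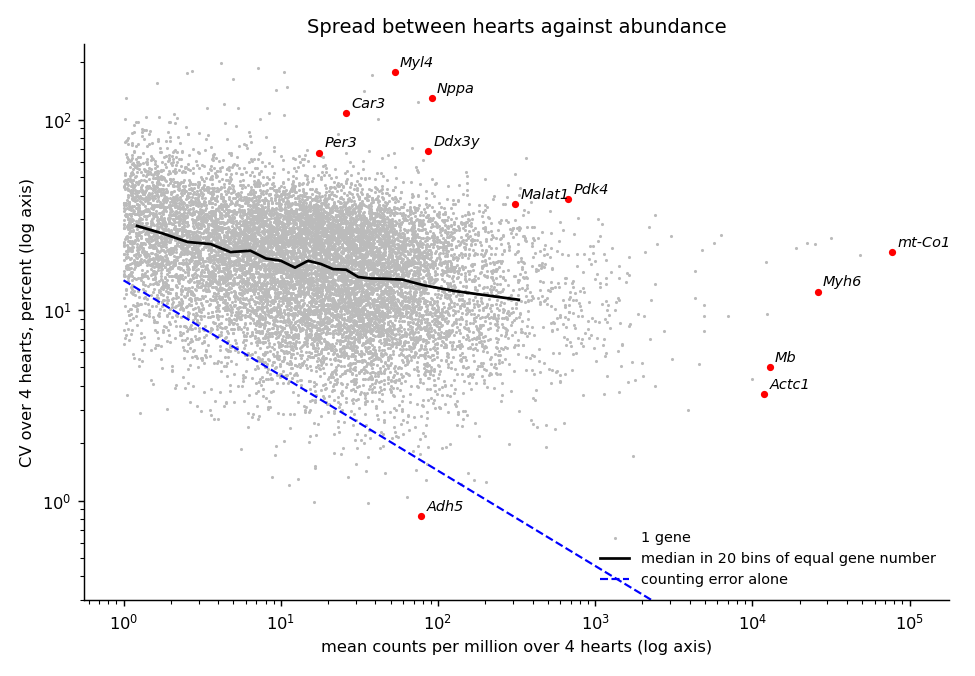
CV over the 4 nontransgenic hearts against mean CPM (both log axes) for genes with a mean of at least 1 CPM. Grey points are genes, the black line is the median in bins of equal gene number, the dashed line is counting error alone, and named genes are in red. Nearly all genes lie above counting error (349 of 12754 lie below it), and the atrial genes Myl4 and Nppa are among the most variable.

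The highest heart was more than 2 times the lowest in 2498 of these genes, 19.6% of them. Lists of core machinery had few such genes: 0 of 36 complex I subunits, 0 of 23 tricarboxylic acid cycle enzymes, 1 of 81 cytosolic and 1 of 78 mitochondrial ribosomal proteins. More were found for the extracellular matrix (26 of 43), immediate early genes (19 of 23), the circadian clock (10 of 19) and transcription factors of the heart (12 of 42). The count of 2498 became 1295 without the library labelled D, 847 without heart B and 1440 with TMM scaling. The median CV of list members was 7.197% for the mitochondrial ribosome, 7.43% for the tricarboxylic acid cycle, 8.71% for complex I, 16.5% for the sarcomere, 33.4% for the extracellular matrix and 53.2% for nuclear long non-coding RNAs.

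In part of the genes 1 heart stood apart. It lay far from the other 3, by Dixon's ratio of gap to range, in 747 genes, 5.86% of those examined. Chance marks about 1 in 20 groups, which is near this share. The marks were uneven between hearts, so the total alone cannot tell marks by chance from others. Of the 747 genes, heart B was low in 352 and the library labelled D high in 154, whereas E was low in 18 and the library labelled D low in 20. With TMM scaling there were 880 such genes, with B low in 314 and high in 273. The steadiest named gene was Adh5, a formaldehyde-clearing dehydrogenase, at 78.5, 78.8, 77.7 and 77.4 CPM, a CV of 0.8294% that became 11.2% with TMM scaling. Rpl7a, a ribosomal protein, was at 202 ± 2.52 CPM and Vdac3, a pore of the outer mitochondrial membrane, at 155 ± 2.16. TMM raised the CV of both, to 9.79% and 11.6%.

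The transcript composition of the libraries differed too. TMM shifted log2 levels by 0.0911 in A, 0.173 in B, -0.163 in the library labelled D and -0.0606 in E against library totals. Under totals the library labelled D was the highest heart for 7253 of 12754 genes, and under TMM for 3650. Deviations of a heart from the mean of the 4, on TMM-scaled log2 values, followed the GC content of the longest transcript across 12742 genes. The Spearman coefficient across genes was 0.476 for A, -0.601 for B, 0.253 for the library labelled D and 0.263 for E; genes are not independent replicates. In heart B the median deviation went from 0.217 in the fifth of genes with the lowest GC to -0.379 in the fifth with the highest, and the median CV of genes rose from 14.1% to 25.4% between them. Hearts A and B held opposite slopes. Deviations also moved with exon length, with Spearman coefficients across genes of -0.282 for A, -0.134 for B, 0.243 for the library labelled D and 0.237 for E. The cause was not tested.

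**Figure D5:**
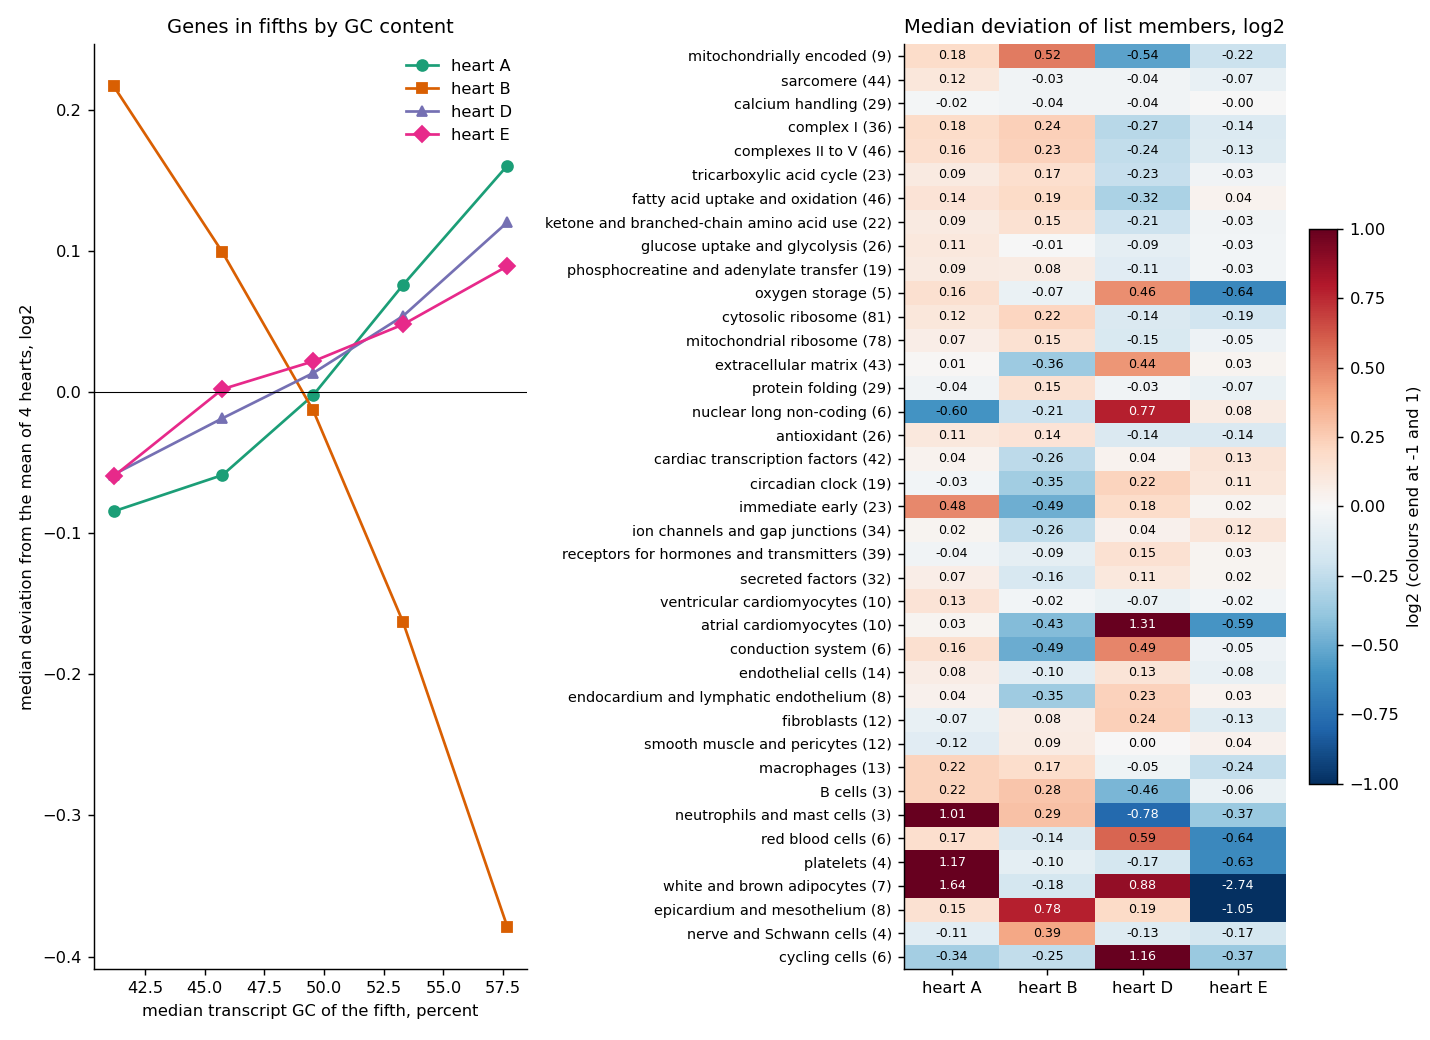
Left, median deviation of each heart from the mean of 4 hearts (log2, TMM-scaled) for 5 groups of genes ordered by transcript GC percent. Right, the same deviation as the median over members of each list (number of genes in brackets). Heart B falls from 0.217 to -0.379 as GC rises, and atrial, cycling-cell and nuclear long non-coding lists are high in the library labelled D.

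Several groups of genes deviated together in single hearts, on the TMM-scaled log2 scale. Most energy lists were low in the library labelled D and high in heart B. The median deviation was -0.54 in D and 0.52 in B for mitochondrially encoded genes, -0.27 and 0.24 for complex I, -0.24 and 0.23 for complexes II to V, -0.32 and 0.19 for fatty acid oxidation and -0.23 and 0.17 for the tricarboxylic acid cycle. Of 36 complex I genes 26 were highest in B and 0 in the library labelled D, whereas over all 12754 genes B was highest in 4340. By library totals, 20 of the 36 were highest in A and 13 in B, against 1162 and 2025 of all genes. On that scale the tricarboxylic acid cycle held 2.30% of counts in A, 2.20% in B, 2.22% in D and 2.37% in E, so B was lowest. Complexes II to V held 3.65%, 3.36%, 3.32% and 3.50% in the same order. The mitochondrially encoded and fatty acid lists were highest in B by totals too. As a share of nuclear counts, fatty acid genes ran from 2.92% in the library labelled D to 4.20% in B. With the median of each of 50 GC bins removed, each of these 5 lists was still negative in D and positive in B. Heart A was also positive for the 5 lists, at 0.18 for complex I before that removal. For mitochondrially encoded genes with GC bins removed, A was at 0.26 and B at 0.22. Glucose uptake and glycolysis was at -0.09 in D and -0.007 in B, and at -0.14 and 0.15 with GC bins removed. Other lists shared the pattern: cytosolic ribosome genes were at -0.14 and 0.22 and antioxidant genes at -0.14 and 0.14, before GC removal.

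With TMM scaling, 35 of 43 extracellular matrix genes were highest in the library labelled D, against 3650 of all 12754 genes. Their median deviation was 0.44 in that library and -0.36 in heart B. Their share of counts was 0.577% ± 0.139, and 0.513% ± 0.0643 without the library labelled D. Removing the GC bins left 0.38 and -0.22. The median exon length was 7013 bases for this list and 1643.5 for complex I, and the part of length in these deviations was not tested. Col3a1, a fibrillar collagen, was at 232, 182, 464 and 234 CPM in A, B, D and E, and Col1a1 at 41.6, 14.8, 90.6 and 45.4. The nuclear long non-coding RNAs Neat1, a scaffold of paraspeckles, and Malat1, found in nuclear speckles, were at 165, 194, 649 and 437 and at 205, 243, 456 and 339 CPM. In both, A and B were lower than E and the library labelled D. Firre, an X-linked nuclear RNA, was at 7.02, 8.54, 30.8 and 24.3 CPM, the same split.

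Immediate early genes, induced quickly by many stimuli, and clock genes also varied. With TMM scaling, 15 of 23 immediate early genes were highest in heart A, against 2588 of all 12754 genes. By library totals 9 were highest in A and 11 in the library labelled D, against 1162 and 7253 of all genes. The median deviation was 0.48 in A and -0.49 in B, and 0.39 and -0.27 with GC bins removed. Jun was at 69.9, 23.3, 56.9 and 55.8 CPM in A, B, D and E and the orphan receptor gene Nr4a1 at 68.7, 20.9, 12.9 and 43.1. Of 19 circadian clock genes 11 were highest in the library labelled D with TMM scaling, against 3650 of all genes. Another 3 were highest in A, 2 in B and 3 in E, against 2588, 4340 and 2176 of all genes. The list's median deviation was 0.22 in the library labelled D and -0.35 in B, and 0.17 and -0.18 with GC bins removed. The clock-driven Dbp, chosen after its values were seen, was at 15.8, 17.0, 51.4 and 25.99 CPM. Per3 was at 8.02, 9.65, 33.6 and 18.7, and E was second in both. The labels give no time of collection, and its part was not tested. Vegfa, the endothelial growth factor, was at 110.2, 123, 305 and 256 CPM.

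Markers of less abundant cell types also differed between hearts, and whether the numbers of those cells differed was not tested. With TMM scaling, 5 of 7 adipocyte markers were highest in heart A, against 2588 of all 12754 genes. Leptin (Lep) was at 9.18, 0.415, 0.482 and 0.0394 CPM in A, B, D and E and adiponectin (Adipoq) at 8.91, 1.11, 3.36 and 0.197. The value of Lep in E is below the 0.059 CPM that a count of 0 allows there. The list had a median deviation of 1.64 in A and -2.74 in E. Cidea, also on that list, was at 22.0 ± 4.39 CPM and was lowest in the library labelled D. By library totals, 5 of 8 mesothelial markers were highest in B and 3 in the library labelled D. Over all 12754 genes those counts were 2025 and 7253. Msln was at 12.003, 22.3, 12.1 and 4.80 CPM, highest in B and lowest in E. Of 6 listed cycling-cell markers 4 were far higher in the library labelled D by Dixon's ratio, against 154 of all 12754 genes. Among the 4 was Mki67 at 4.69, 4.61, 17.9 and 5.04 CPM. Hbb-bs, a beta-globin of red blood cells, was at 326, 262, 508 and 206 CPM. These lists held at most 0.0925% of a heart's counts each, a small part of the total.

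Genes chosen for the largest spread also included some with 1 high heart. Endod1, an endonuclease domain gene, was at 8.78, 7.38, 13.6 and 105 CPM in A, B, D and E, high in E. The interferon-induced GTPase gene Iigp1 was at 37.4, 139.8, 39.3 and 57.5 CPM, high in B. Retnla, a product of alternatively activated macrophages and fat, was at 27.4, 14.3, 7.44 and 7.97, and the carbonic anhydrase gene Car3, abundant in fat, at 65.0, 9.80, 27.9 and 1.59. Both were highest in A, the heart with the highest Lep and Adipoq.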

How the data were processed

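RNA from hearts was sequenced with a TruSeq library kit, per the labels' protocols. Adapters were trimmed with cutadapt 1.15 and reads aligned with TopHat2 to GRCm38 (mm10), per the submitters' processing notes. Sources used here do not name the counter, its strand setting, the annotation release or the gene filter. The deposited values were raw counts per Ensembl gene for 13227 genes in each file. Symbols, exons and transcript GC came from GENCODE M21, which lacked 7 of the identifiers.

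CPM was computed from library totals. TMM factors and the common dispersion came from edgeR 4.0.16 and size factors from DESeq2 1.42.0 (R 4.3.3). The dispersion step was tested on simulated data. No groups were compared by a test, since the 4 hearts form 1 group. Dixon's ratio with its 95% limit for 4 values marked genes with 1 heart far from the rest, with no adjustment for the number of genes. The labels give the hearts letters and do not say more about the animals. Counting limits cover counting error only. Named were the 30 most abundant genes, the 20 highest per kilobase, the 3 highest of each list and members with no counts in a heart, members of the partner sets, and the 20 most and 20 least variable genes of at least 10 CPM, and the label check lists. Dbp, Lep, Myom1, Xirp2, Myoz2, Ldb3 and Synpo2l fall outside this rule and were chosen after their values were seen. The members and lists were chosen with earlier results of these data known. Alternatives were TMM and DESeq2 scaling, a nuclear total, other minimum levels, per-kilobase values, the longest transcript as length, and leaving out each heart. Removal of GC bins was added after the data were seen. One gene that the naming rule gives is not reported here.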

Additional observations from a re-analysis of the deposited data

Results flagged for a closer look

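In a group of 4 hearts, a value was marked where the gap between the highest or lowest heart and its neighbour exceeded Dixon's 95% limit, as a part of the whole range. Chance marks about 1 in 20 groups, and 239 named genes and the gene lists were screened. That rate does not hold for this set. It includes genes named for a large spread or for no counts in a heart, and the label check genes.

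In the library labelled D the high values were the atrial marker share of 0.195%, the Fastkd1 share of 0.0213%, and the CPM of Nppa (267), Fastkd1 (213), Myl4 (194), Myl7 (136), Col14a1 (52.7), Sln (38.2), Sbk3 (35.3), Fabp5 (27.5), Gja5 (23.3) and Mki67 (17.9). Its low values were the Y-linked share of 0%, Eif2s3y at 0 CPM, Uty at 0 CPM, Mrps23 at 118 CPM and Pparg at 8.32 CPM.

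In heart B the low values were Hspb7 at 1906 CPM, Ogdh at 1293, Pgam2 at 406, Pdk2 at 236, Gata4 at 84.5 and Cox4i2 at 3.49. In heart A the high values were a platelet marker share of 0.00321%, Ppbp at 14.5 CPM, Itga2b at 5.15 and Eef1d at 142. In heart E, Endod1 was high at 105 CPM, Tpm1 was low at 9258 CPM and the share of cardiac transcription factors was low at 0.492%.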

How the results depend on the processing

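Of the values for whole comparisons under an alternative, 56 stayed close to the value reported and 16 did not, where close means within 1.5 times for a count and within the spread between hearts, or between pairs of hearts, for other values. The number of genes holding 50% of counts became 401 without mitochondrially encoded genes and 12 per kilobase. The share of the top 10 genes became 14.1% and 48.6%, that of the top 100 genes 32.5% and 67.1%, and that of the functional lists 40.3% and 72.7%, in the same order. The number of genes ranging over 2-fold became 1440 with TMM, 1362 with DESeq2 size factors, 1079 at a minimum of 10 CPM, 945 with GC bins removed, and 847 to 2327 when each heart was left out (847 without B, 1295 without the library labelled D). The median CV ran from 12.5% (without B) to 19.5% when each heart was left out. At a minimum of 10 CPM, 465 genes had 1 heart far from the rest, and leaving out a heart was not run for this count. No paired analysis was possible because no groups were compared. With 4 hearts, a CV is imprecise for any single gene.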
